A study of Mus musculus with 26 samples.

Results

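The 10 genes described here encode enzymes that make prostaglandins, leukotriene B4 and other products of arachidonic acid, and the receptors of leukotriene B4. They were taken by symbol from the 56738 gene symbols of the count table, and all 10 were found. They are the cyclooxygenases *Ptgs1* and *Ptgs2*, the prostaglandin E synthases *Ptges* and *Ptges2*, the lipoxygenases *Alox5*, *Alox12* and *Alox15*, the leukotriene A4 hydrolase *Lta4h* and the receptors *Ltb4r1* and *Ltb4r2*. RNA was sequenced from primary keratinocytes, which form the epidermis, of 5 WT and 8 KO pups aged 2 days. KO mice lack *Pla2g4d*, a cytosolic phospholipase A2 of the skin, through a CRISPR-Cas9 deletion present in the whole body. Cells were cultured for 4 days in EpiLife medium with HKGS supplement and 0.06 mM CaCl2, and then either left untreated (basal) or given IL17A and TNFα, each at 20 ng/ml, for 24 h, cytokines that drive psoriatic inflammation. Each of the 13 mice gave 1 basal and 1 cytokine library, made from pooled wells of that animal, so that 26 libraries fell into 4 groups: WT basal (n = 5), WT with cytokines (n = 5), KO basal (n = 8) and KO with cytokines (n = 8). Which basal and cytokine libraries share a mouse was read from the numbers in their titles. The deletion line was backcrossed 4 times and then bred homozygously, and the sex and litter of the pups are not given.

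Prostaglandins and leukotrienes are local lipid mediators. A phospholipase A2 frees arachidonic acid from membranes, cyclooxygenases convert it to prostaglandin H2, and terminal synthases such as the microsomal prostaglandin E synthase of *Ptges* finish the prostaglandin. In the other branch, 5-lipoxygenase (*Alox5*), helped by its membrane partner *Alox5ap*, makes leukotriene A4, which *Lta4h* hydrolyses to leukotriene B4. Leukotriene B4 is known for drawing neutrophils into inflamed skin through its high-affinity receptor BLT1 (*Ltb4r1*). The low-affinity receptor BLT2 (*Ltb4r2*) is known from keratinocytes, where a cyclooxygenase product also binds it.

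The bases before the transcript start are shown for the genes whose levels moved most clearly, since the comparisons turn on these genes. They were read from GRCm39 before the start of the canonical GENCODE transcript, 250 bases each, 5′ to 3′ on the strand of the gene. For *Ptgs2* the last 45 bases are printed, because a second transcript of the gene begins further upstream. The *Ptges* window lies within the annotated span of *Ptges*, which begins further upstream than the canonical transcript. Capitals mark matches to the motifs searched. They span chr1:149975443-149975487 on the plus strand for *Ptgs2*, chr2:30793356-30793605 on the minus strand for *Ptges*, chr14:55998593-55998842 on the plus strand for *Ltb4r2* and chr14:56003042-56003291 on the plus strand for *Ltb4r1*.
Ptgs2: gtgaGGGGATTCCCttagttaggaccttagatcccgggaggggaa
Ptges: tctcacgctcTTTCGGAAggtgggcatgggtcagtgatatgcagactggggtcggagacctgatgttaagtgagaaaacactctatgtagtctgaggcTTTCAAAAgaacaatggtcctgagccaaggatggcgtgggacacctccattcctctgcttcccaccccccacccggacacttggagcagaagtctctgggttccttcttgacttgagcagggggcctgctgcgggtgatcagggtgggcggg
Ltb4r2: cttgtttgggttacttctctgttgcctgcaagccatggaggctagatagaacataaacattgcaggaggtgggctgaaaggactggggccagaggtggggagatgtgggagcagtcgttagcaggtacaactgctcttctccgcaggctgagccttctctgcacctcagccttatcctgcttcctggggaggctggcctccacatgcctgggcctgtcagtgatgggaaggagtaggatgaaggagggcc
Ltb4r1: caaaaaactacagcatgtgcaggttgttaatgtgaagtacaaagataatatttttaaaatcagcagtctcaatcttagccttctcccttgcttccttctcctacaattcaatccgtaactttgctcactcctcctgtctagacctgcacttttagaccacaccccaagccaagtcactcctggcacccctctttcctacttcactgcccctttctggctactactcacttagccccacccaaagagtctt
The 5 motifs were searched on both strands in the 250 bases before 21770 protein-coding genes, allowing overlaps. The NF-κB site was found in 7.62% of them, and *Ptgs2* was the only member that held it, in bases 41 to 32 before the start. The cAMP response motif TGACG was found in 3926 of them and lay in *Ptgs2* at bases 72 to 68, upstream of the printed stretch and on the other strand. The C/EBP site TTNCNNAA, present in 36.9%, matched *Ptges* at bases 240 to 233 and at bases 152 to 145, and *Alox12* at the overlapping bases 121 to 114 and 120 to 113. The windows of *Ltb4r1* and *Ltb4r2* held none of these letters, nor the E-box CACGTG (6.26%) or the AP-1 site TGANTCA (6.17%), which no member held. A match describes letters and not binding of a factor. Both receptor genes lie side by side on the plus strand of chromosome 14, *Ltb4r2* at 55998843 to 56002595 and *Ltb4r1* at 56003292 to 56005951. The 3 genes *Ptges* (30779483 to 30820196, minus strand), *Ptges2* (32285659 to 32295786, plus) and *Ptgs1* (36120438 to 36142287, plus) lie on chromosome 2, as does *Pla2g4d*. *Alox12* (70132283 to 70146221) and *Alox15* (70234970 to 70242858) lie on the minus strand of chromosome 11, *Ptgs2* (149975194 to 149983978, plus) on chromosome 1, *Alox5* (116387032 to 116438139, minus) on chromosome 6 and *Lta4h* (93289210 to 93320749, plus) on chromosome 10. Values count reads over all annotated exons of a gene.

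Total counts per library lay between 42072745 and 78102858, with medians of 55635255 in WT basal, 57187471 in WT with cytokines, 55265592 in KO basal and 47544479.5 in KO with cytokines. All 10 keratinocyte markers had counts in every library, with summed levels of 42000 to 49190 CPM, counts scaled to the effective library size, in basal cells and 34330 to 36600 CPM with cytokines. Within this list the differentiation keratins *Krt1* and *Krt10* had the largest ratios between groups, with *Krt1* at a mean of 1522 CPM in WT basal, 75.04 in WT with cytokines, 903 in KO basal and 28.0 in KO with cytokines. The Langerhans cell markers *Cd207* and *H2-Aa* were at 0 in every library, and the summed level of the 5 Langerhans markers (51.6 to 98.2 CPM basal, 149.6 to 240.1 with cytokines) was nearly all *Epcam*. The 5 neutrophil and 5 mast cell markers summed to at most 0.173 and 0.254 CPM. Melanocyte markers summed to 421.8 to 619 CPM in basal cells and 297.6 to 465.9 CPM with cytokines. Fibroblast markers reached 1.69 to 7.43 CPM and endothelial markers 1.37 to 5.96 CPM, with *Cdh5* at 0 in 25 of 26 libraries. The 2 basal libraries least like the others of their group were WT replicate 2 (median r of log2 CPM 0.960) and KO replicate 4 (0.951). Leaving out the mouse of the latter cost no member a call apart from *Ltb4r1* in the interaction, and leaving out that of the former cost *Alox12* its basal call and *Ltb4r1* that in the interaction, and added *Ptgs2* to the WT calls with cytokines. *Pla2g4d* itself had 3.35 ± 1.36 CPM in WT basal and 2.06 ± 0.716 CPM in KO basal cells (SD), and 52.2 ± 14.9 and 38.1 ± 9.55 CPM with cytokines, but a count over the whole gene includes the exons outside the deletion and does not check it.

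Set side by side per transcript length (TPM, from the summed exon length), the members covered a wide range in WT basal cells. *Ptgs2*, the inducible cyclooxygenase, stood first at 436.5 ± 73.4 TPM (SD, n = 5), and *Ptges* followed at 71.9 ± 13.9 TPM. *Ltb4r1* (21.95 ± 3.35 TPM), *Lta4h* (21.9 ± 2.18 TPM) and *Ltb4r2* (17.9 ± 2.81 TPM) did not differ beyond their spread. With the length of the longest transcript their means were 16.6, 25.9 and 13.7 TPM, so the likeness of *Lta4h* and the receptors depends on the length used. *Ptges2* had 13.2 ± 1.64 TPM. *Ptgs1*, the cyclooxygenase that many tissues express at a steady level, had 2.97 ± 0.711 TPM and the platelet-type 12-lipoxygenase *Alox12* 2.64 ± 0.680 TPM, again within each other's spread. *Alox5* was near the detection limit at 0.272 ± 0.233 TPM and *Alox15*, the 12/15-lipoxygenase, lower still at 0.0941 ± 0.137 TPM. The level of *Ptgs2* was thus far above that of *Ptgs1* in each of the 4 groups, the other means being 614.1 against 3.07 TPM in WT with cytokines, 678.3 against 2.09 TPM in KO basal and 729 against 3.43 TPM in KO with cytokines. With cytokines *Ltb4r1* (9.50 ± 3.39 TPM) and *Ltb4r2* (6.57 ± 1.91 TPM) were below *Lta4h* (19.8 ± 1.07 TPM) and *Ptges2* (18.7 ± 1.90 TPM) in WT cells.

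**Figure D1:**
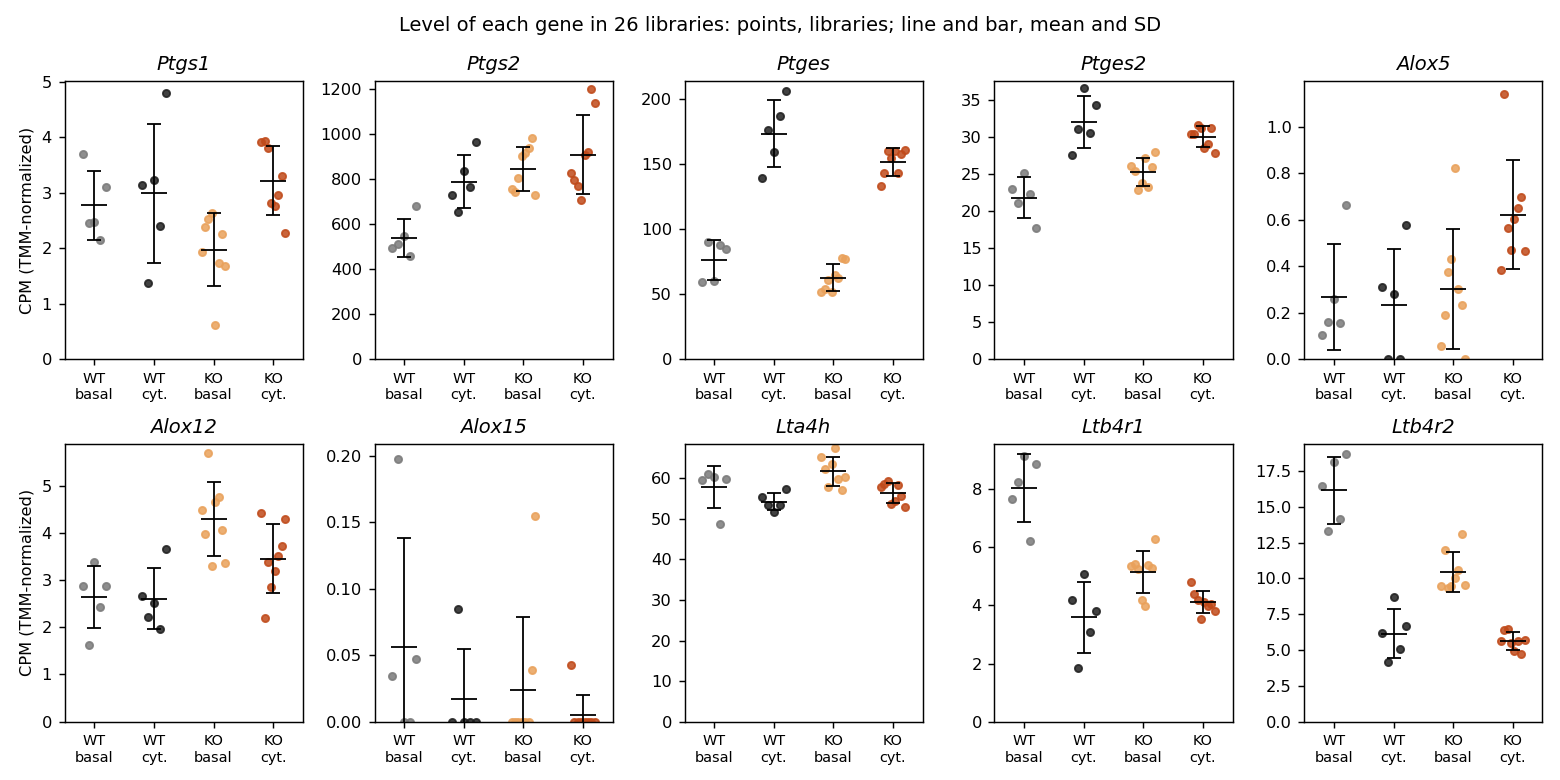
CPM after TMM normalization (y axis, linear, from 0) of each of the 10 genes in 4 groups (x axis; cyt., IL17A and TNFα). Points are libraries (5, 5, 8 and 8), the line and bar are mean and SD, and bars are cut at 0. *Ptges* libraries with cytokines (132.8 to 206 CPM) all lie above the basal ones (51.4 to 90.2 CPM), those of *Ltb4r2* lie below them, and *Alox15* is at 0 in 19 of 26 libraries.

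The first comparison asked how the cytokines changed these genes in WT cells. Of the 10 members, 9 passed the filter on expression (a mean normalized count over 10), and *Alox15* did not. A gene was called where edgeR's quasi-likelihood test gave a Benjamini-Hochberg adjusted p under 0.1 over all 16893 genes and the fold change was over 1.5. In WT cells 1 member rose and 2 fell, beside 13.9% of all genes called (8.65% higher and 5.26% lower). The median log2 fold change of the 9 was -0.02, and that of all genes 0.01. RNA was taken from whole cultures, so that fewer cells of a type and less RNA per cell cannot be told apart. In KO cells 2 members rose and 1 fell, beside 10.9% of all genes (6.33% higher and 4.55% lower), with medians of 0.10 over the 9 and 0.00 over all genes.

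Among the prostaglandin genes *Ptges*, the inducible synthase, rose in both genotypes. Its WT basal values were 59.6, 90.2, 59.9, 87.9 and 84.5 CPM in replicates 1 to 5, and the same mice gave 138.9, 176.3, 159, 186.7 and 206 CPM with cytokines. KO libraries ran from 51.4 to 77.6 CPM (median 61.8) in basal cells and from 132.8 to 160.6 CPM (median 156.2) with cytokines. The groups did not overlap in either genotype, and the level was higher with cytokines in 13 of 13 mice. The log2 fold change was 1.18 in WT (SE 0.12, edgeR adjusted p = 8.45e-09) and 1.28 in KO cells (SE 0.10, adjusted p = 1.47e-11), that is 2.27 and 2.42 times the basal level. *Ptges2*, a second prostaglandin E synthase, was 1.47 times higher in WT cells (21.8 ± 2.73 to 32.0 ± 3.52 CPM, adjusted p = 3.19e-06) and 1.19 times higher in KO cells (25.3 ± 1.87 to 30.01 ± 1.40 CPM, adjusted p = 0.00347), both under the fold of 1.5.

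*Ptgs2* did not follow *Ptges* in KO cells. WT basal libraries held 494.4, 508.9, 547.1, 459.4 and 679.5 CPM in replicates 1 to 5, against 726.5, 654.6, 832.9, 763.5 and 962 CPM with cytokines. All 5 WT mice had a higher level with cytokines, and 4 of the 5 treated libraries lay above every basal library. The log2 fold change of 0.55 (SE 0.13, adjusted p = 0.00119), or 1.47 times, stayed under the fold of 1.5. In KO cells the range was 730.1 to 979.4 CPM (median 850.5) in basal and 704.5 to 1197 CPM (median 866.5) in treated libraries. These ranges overlapped widely, 4 of 8 KO mice were higher and 4 lower with cytokines, and the log2 fold change was 0.10 (SE 0.10, adjusted p = 0.507). The highest KO libraries with cytokines were replicates 7 and 8, at 1197 and 1138 CPM.

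*Ptgs1* was low throughout. WT basal libraries held 2.14 to 3.70 CPM (median 2.46) and treated ones 1.37 to 4.80 CPM (median 3.14), with a log2 fold change of 0.11 (SE 0.29, adjusted p = 0.821). In KO cells it rose from 0.613 to 2.64 CPM (median 2.10) to 2.28 to 3.93 CPM (median 3.13), and 8 of 8 KO mice were higher with cytokines. The log2 fold change was 0.71 (SE 0.23, adjusted p = 0.0188). The basal KO library of replicate 5, at 0.613 CPM, was the lowest, and without that mouse and without each other mouse the gene was still called. When a fold over 1.5 was itself tested (glmTreat), the KO call of *Ptgs1* was lost, with an adjusted p of 1.

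Of the lipoxygenases, none was called in a cytokine comparison. *Alox12* had 1.62 to 3.38 CPM (median 2.88) in WT basal and 1.97 to 3.67 CPM (median 2.51) in WT treated libraries, a log2 fold change of -0.02 (SE 0.20, adjusted p = 0.960). In KO cells it had 3.30 to 5.68 CPM (median 4.27) basal and 2.20 to 4.42 CPM (median 3.45) with cytokines (log2 -0.31, SE 0.16, adjusted p = 0.147). The 5 platelet markers, which belong to a cell type known for *Alox12*, summed to 1.64 to 5.31 CPM over all libraries, nearly all *Itga2b*, with *Gp9* counted in 2 of 26 libraries. *Alox5* ranged from 0.104 to 0.662 CPM (median 0.158) in WT basal and from 0 to 0.578 CPM (median 0.279) in WT treated libraries, 2 of which had no count. KO basal libraries held 0 to 0.823 CPM (median 0.268), and KO libraries with cytokines 0.382 to 1.14 CPM (median 0.583). The KO log2 fold change of 1.04 had an SE of 0.64 and an adjusted p of 0.247, and that in WT cells was -0.17 (SE 0.83, adjusted p = 0.906). Summed counts of *Alox5* were 68, 68, 139 and 262 in the 4 groups in the order above. A count of 0 allows up to 0.0387 to 0.0709 CPM, the level of 3 counts in the deepest and the shallowest library, for counting error only. If both mates of a pair were counted, 3 fragments are 6 counts and the limit is 0.0773 to 0.142 CPM. *Alox15* had summed counts of 14, 6, 10 and 2, and at most 0.198 CPM in any library. *Alox5ap*, the membrane partner of 5-lipoxygenase, was also under the filter, with 0 to 0.260 CPM and counts of 24, 12, 12 and 16 per group.

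*Lta4h*, the enzyme that completes leukotriene B4, was steady. Group means were 57.9 ± 5.20 CPM in WT basal, 54.3 ± 2.19 CPM in WT with cytokines, 61.7 ± 3.61 CPM in KO basal and 56.3 ± 2.49 CPM in KO with cytokines. Its log2 fold change with cytokines was -0.09 in WT (SE 0.06, adjusted p = 0.233) and -0.13 in KO cells (SE 0.04, adjusted p = 0.0258), a difference far under the fold of 1.5.

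The leukotriene B4 receptors were lower with cytokines. For *Ltb4r2*, encoding BLT2, WT basal libraries held 16.4, 13.3, 18.1, 14.2 and 18.7 CPM in replicates 1 to 5, and those with cytokines 6.16, 4.19, 8.68, 5.07 and 6.68 CPM. KO libraries fell from 9.33 to 13.1 CPM (median 9.78) to 4.74 to 6.48 CPM (median 5.64). The level was lower in 13 of 13 mice, and basal and treated libraries did not overlap in either genotype. The log2 fold change was -1.39 in WT (SE 0.15, adjusted p = 1.1e-08) and -0.89 in KO cells (SE 0.12, adjusted p = 4.2e-07), or 2.62 and 1.86 times lower.

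*Ltb4r1*, encoding BLT1, fell in WT cells, from 7.67, 8.26, 9.15, 6.22 and 8.86 CPM in replicates 1 to 5 to 4.18, 1.85, 5.07, 3.08 and 3.79 CPM. All 5 treated libraries lay under all basal ones, with the lowest value in replicate 2. The log2 fold change was -1.16 (SE 0.18, adjusted p = 5.69e-06). KO libraries had 3.98 to 6.27 CPM (median 5.32) in basal and 3.53 to 4.80 CPM (median 4.09) in treated cells. The ranges overlapped, 7 of 8 KO mice were lower with cytokines, and the log2 fold change of -0.32 (SE 0.14, adjusted p = 0.0811) did not reach the fold of 1.5. The 8 leukocyte markers, of cells known for BLT1, summed to 17.5 to 25.4 CPM in basal and 20.6 to 43.95 CPM in treated libraries. Nearly all of that sum was *Cd68*, and the pan-leukocyte gene *Ptprc* had counts in 10 of 26 libraries with group means of at most 0.0559 CPM. The part of these markers and of the lower *Krt1* and *Krt10* in the changes was not tested.

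**Figure D2:**
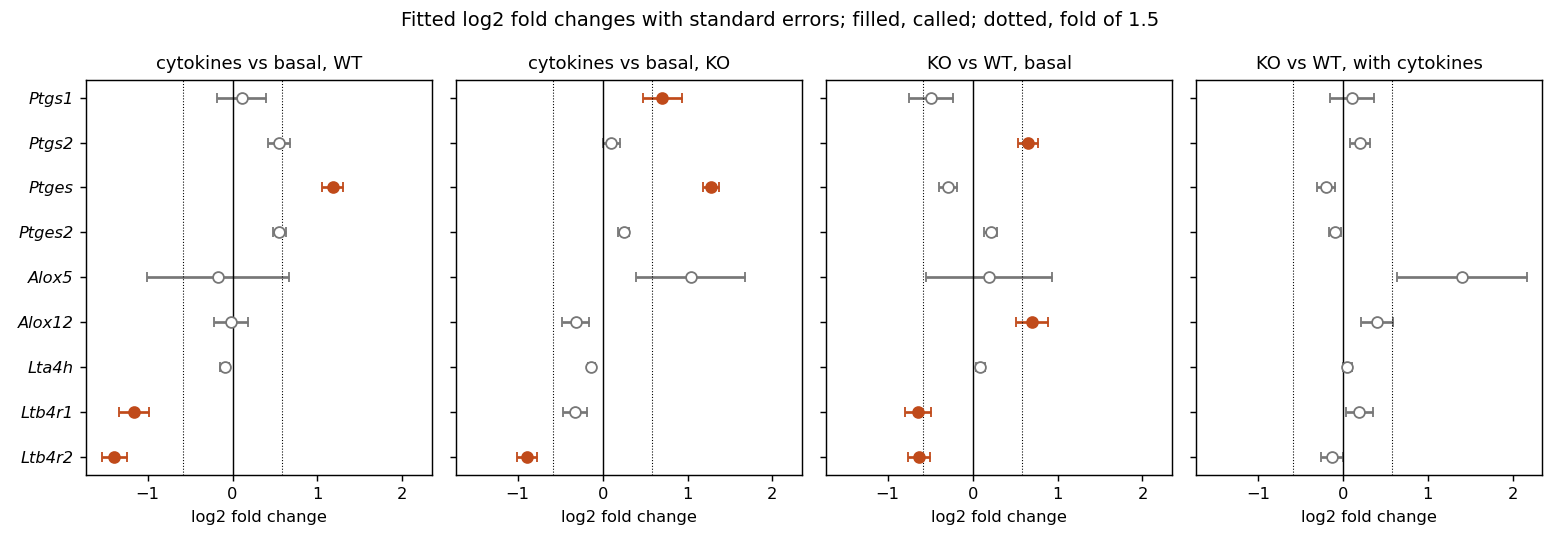
Fitted log2 fold change (x axis) with its standard error for the 9 genes tested (y axis) in 4 comparisons. Filled points were called (adjusted p under 0.1 and fold over 1.5, dotted lines), 3, 3, 4 and 0 of 9 from left to right, and the widest bars are those of *Alox5*.

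The comparison of genotypes in basal cells set KO against WT cells without cytokines. Genotype cannot be told apart here from breeding line and litter. It called 4 of the 9 members, 2 higher and 2 lower in KO cells, beside 2.68% of all genes (1.61% higher and 1.07% lower), with medians of 0.09 over the 9 and 0.00 over all genes. *Krt1* and *Krt10* were also at lower means in KO basal cells, and their part in these differences was not tested. *Ptgs2* was higher in KO cells, and the ranges of 459.4 to 679.5 CPM in WT and 730.1 to 979.4 CPM in KO did not overlap (log2 fold change 0.65, SE 0.12, adjusted p = 0.000418). This put the KO basal mean of 845 ± 98.7 CPM beside the 788 ± 117 CPM of WT cells with cytokines. *Alox12* was 1.62 times higher in KO cells, with 6 of 8 KO libraries above every WT library (log2 0.70, SE 0.19, adjusted p = 0.0151), and was not called without WT replicate 2, which had the lowest WT value of 1.62 CPM. The platelet markers summed to 2.98 to 5.31 CPM in WT basal and 2.17 to 3.77 CPM in KO basal libraries, nearly all *Itga2b*. Their part in the difference of *Alox12* was not tested.

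Both leukotriene B4 receptors were lower in basal KO cells. For *Ltb4r2* all 8 KO libraries lay under all 5 WT libraries, at 9.33 to 13.1 against 13.3 to 18.7 CPM, and the log2 fold change was -0.63 (SE 0.13, adjusted p = 0.00151). Without WT replicate 3 or WT replicate 5 its fold change dropped under 1.5 and it was not called. *Ltb4r1* had 3.98 to 6.27 CPM in KO against 6.22 to 9.15 CPM in WT cells, with 7 of 8 KO libraries under the WT range (log2 -0.64, SE 0.16, adjusted p = 0.00708). *Ptges* (log2 -0.29, adjusted p = 0.0985) and *Ptges2* (0.21, adjusted p = 0.0672) differed by less than the fold of 1.5, and *Ptgs1* (-0.49, adjusted p = 0.272), *Alox5* (0.19, adjusted p = 0.919) and *Lta4h* (0.09, adjusted p = 0.304) did not pass the test. All 4 called members lay close to the fold of 1.5, at 1.55 to 1.62 times, and with glmTreat 0 of them passed.

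An antisense transcript bears on *Ptgs2*. *Ptgs2os* shares exon bases with *Ptgs2* on the opposite strand, and had 1.66 ± 0.576 CPM in WT basal, 3.11 ± 0.796 CPM in WT with cytokines, 2.71 ± 0.616 CPM in KO basal and 4.10 ± 0.662 CPM in KO with cytokines. Those levels are a small part of the reads of *Ptgs2*, and whether reads were counted by strand is not given in the sources used here, so that reads of the pair cannot be told apart. Opposite-strand exons of predicted genes also overlap *Ptgs1*, *Ptges*, *Alox5* and *Alox12*.

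With cytokines present, the genotypes were compared again, and 0 of 9 members were called, near the background of 0.704% of all genes (0.148% higher and 0.556% lower). The medians were 0.11 over the 9 and -0.01 over all genes. At an unadjusted p under 0.05, edgeR's quasi-likelihood test had 1 member (*Alox12*, log2 0.40, adjusted p = 0.296), and DESeq2 and limma also called 0. *Ptgs2* averaged 788 ± 117 CPM in the WT libraries and 907 ± 176 CPM in the KO libraries (log2 0.20, SE 0.12, adjusted p = 0.420). *Ltb4r2* had 6.15 ± 1.71 and 5.63 ± 0.622 CPM (log2 -0.13, SE 0.13, adjusted p = 0.724), and *Ltb4r1* 3.59 ± 1.21 and 4.11 ± 0.381 CPM (log2 0.19, SE 0.16, adjusted p = 0.631). *Alox5* had the largest difference of the 9 (log2 1.40, SE 0.76, adjusted p = 0.394), with 4 of 8 KO libraries above every WT library. A miss of the threshold does not show that the levels were alike.

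Whether the genotypes responded differently was tested as an interaction, the log2 fold change with cytokines in KO minus that in WT cells. It shares the WT and KO basal libraries with the comparisons above and is not independent of them. Among all genes 0.219% were called (0.0355% higher and 0.184% lower), and 1 of 9 members, *Ltb4r1*, with a difference of 0.84 (SE 0.22, adjusted p = 0.0923). With the mouse as a replicate block its difference was 0.90 (adjusted p = 0.0345). The call was lost with glmTreat, at an adjusted p of 0.05, without the filter on expression (adjusted p = 0.134) and without 10 of the 13 mice singly (WT replicates 2, 4 and 5 and KO replicates 1 to 7), where the adjusted p reached 0.246. Differences for *Ltb4r2* (0.50, SE 0.19, adjusted p = 0.333), *Ptgs2* (-0.45, SE 0.16, adjusted p = 0.320) and *Ptges2* (-0.31, SE 0.10, adjusted p = 0.267) were not called. The paired fit gave adjusted p of 0.0878, 0.0351 and 0.179 for them, with fold differences under 1.5.

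The change within each mouse gave a view of the same libraries that needs no shared estimate of spread. For *Ltb4r1* it was between -2.15 and -0.85 log2 units in the 5 WT mice and between -0.72 and 0.05 in the 8 KO mice, with no overlap. For *Ltb4r2* it was -1.67 to -1.06 in WT and -1.46 to -0.53 in KO mice, and for *Ptgs2* 0.36 to 0.73 in WT and -0.35 to 0.64 in KO mice. KO replicate 8 had the largest *Ptgs2* change of the KO mice (0.64). Two-sided exact permutation tests of the mean change over 1287 regroupings of 5 and 8 mice, unadjusted and for all 9 members tested, gave p = 0.000777 for *Ltb4r1*, the smallest they can give, 0.00544 for *Ltb4r2*, 0.0101 for *Ptgs2* and 0.0140 for *Ptges2*. The exact p was 0.0311 for *Alox5*, whose libraries were at or near 0, and 0.0334 for *Ptgs1*. *Alox12*, *Ptges* and *Lta4h* did not pass 0.05, with exact p of 0.186, 0.366 and 0.584.

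**Figure D3:**
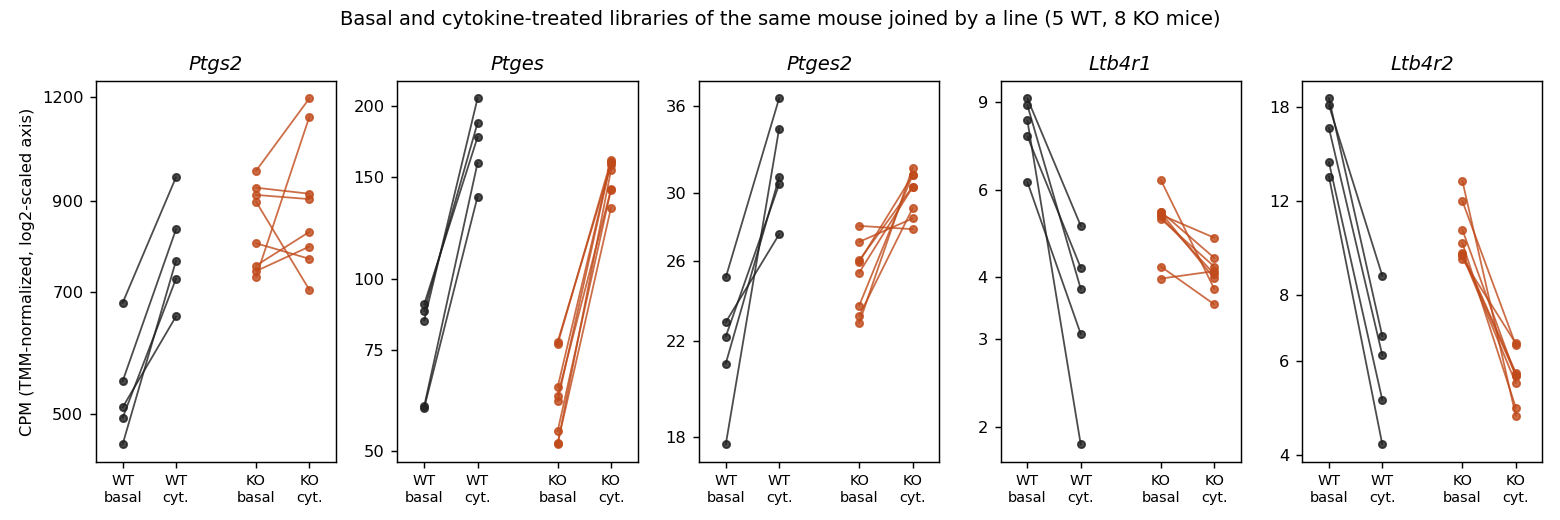
CPM (y axis, log2-scaled, a separate range in each panel) of 5 genes in basal and cytokine libraries, each line joining the libraries of a mouse (black, 5 WT; orange, 8 KO). *Ptges* lines go up in 13 of 13 mice and *Ltb4r2* lines down in 13 of 13, while *Ptgs2* lines go up in 5 of 5 WT and 4 of 8 KO mice.

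The 44 other eicosanoid genes of the pathway list were examined in the same fit, and 27 passed the filter. In WT cells cytokines raised 6 and lowered 4, and in KO cells they raised 7 and lowered 3, beside 13.9% and 10.9% of all genes called. The median log2 fold change over the 27 was 0.10 in WT and 0.01 in KO cells, and over all genes 0.01 and 0.00. *Slco2a1*, the transporter that takes prostaglandins into cells, rose from 116.3 ± 6.43 to 285.8 ± 26.9 CPM in WT (log2 1.30, SE 0.09, adjusted p = 1.93e-12) and from 158.9 ± 20.5 to 339.5 ± 34.6 CPM in KO cells (1.09). *Ptgr1*, a reductase that inactivates prostaglandins and leukotriene B4, fell from 167.3 ± 27.5 to 79.9 ± 13.3 CPM in WT (log2 -1.07, adjusted p = 3.85e-09) and from 143.7 ± 18.7 to 66.1 ± 4.45 CPM in KO cells (-1.12). *Prxl2b*, which makes prostaglandin F2α, fell (-1.01 in WT, -1.05 in KO). *Ptger3*, a prostaglandin E2 receptor, rose from 0.748 to 1.82 CPM in WT (log2 1.28, adjusted p = 0.00928) and from 0.845 to 1.48 CPM in KO cells (0.81, adjusted p = 0.0366), and *Akr1b8*, an aldo-keto reductase, rose by 0.80 in WT and 0.88 in KO cells.

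Of the epidermal lipoxygenases, which serve the skin barrier and not leukotriene synthesis, *Alox12b* rose from 23.7 ± 7.77 to 53.5 ± 11.6 CPM in WT (log2 1.17, SE 0.25, adjusted p = 0.00041) and from 20.7 ± 8.82 to 46.3 ± 9.87 CPM in KO cells (1.16, SE 0.20, adjusted p = 2.39e-05). *Aloxe3*, which acts on the product of *Alox12b*, rose by 0.66 in WT (adjusted p = 0.00802) and 0.63 in KO cells (adjusted p = 0.00167). Basal and treated ranges of both overlapped in both genotypes. *Ephx3*, an epoxide hydrolase of the same barrier pathway, rose too (1.15 and 1.14). *Cyp4f39*, listed with these genes and named after its values were seen, was called lower with cytokines. Its log2 fold change was -0.86 in WT (adjusted p = 0.000207) and -0.64 in KO cells (adjusted p = 0.000435). *Alox8* was under the filter, at no more than 0.717 CPM in any library. No gene of the list was called between the genotypes in basal cells, with cytokines or in the interaction by edgeR, DESeq2 or limma. Of all genes, edgeR called 2.68%, 0.704% and 0.219% in these comparisons. By edgeR's quasi-likelihood test 12 of the 27 had an unadjusted p under 0.05 in basal cells, 9 with cytokines and 1 in the interaction. The share of all genes under that unadjusted p was not computed, so these counts have no background beside them. In basal cells 5 of the 27 had an adjusted p under 0.1 with a fold under 1.5, beside 2303 of all 16893 genes under that adjusted p at any fold. Among the 5 was *Slco2a1* (log2 0.45, adjusted p = 0.000382, 8 of 8 KO libraries above every WT library). The other 4 were lower in KO cells (*Hpgds*, *Ptgr2*, *Ephx1* and *Cyp4f39*, named after their values were seen), and all 8 KO libraries lay under every WT library for *Ptgr2* (log2 -0.16, adjusted p = 0.0388). Leaving out WT replicate 1 or KO replicate 8 gave 1 basal call, and leaving out KO replicate 7 gave 2. With cytokines, leaving out WT replicate 1 gave 1 call between the genotypes.

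**Figure D4:**
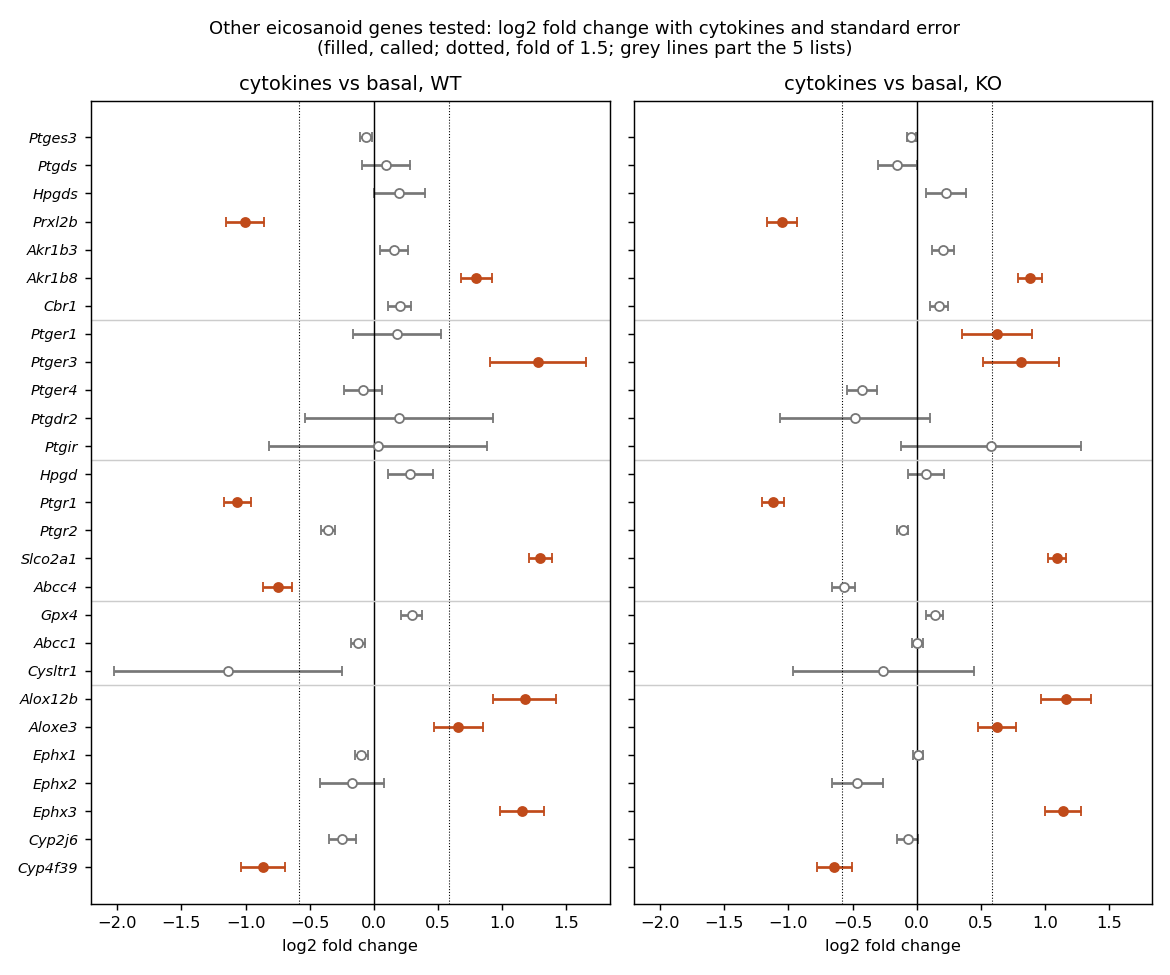
Log2 fold change with cytokines (x axis, with standard error) of the 27 other eicosanoid genes tested (y axis), WT on the left and KO on the right. Filled points were called, 10 of 27 in each genotype, with *Slco2a1* (1.30) the highest and *Ptgr1* (-1.07) the lowest of the WT calls.

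Genes most like the members called in both genotypes were sought among all 16893 by Pearson correlation of log2 CPM over the 26 libraries, which share the cytokine treatment. For *Ptges* these were *Ptk6* (r = 0.990), a kinase of differentiating epithelium, *Sprr2h* (r = 0.988), a cornified envelope protein, and *Pla2g4d* (r = 0.983), the deleted gene. After the group means were taken off they were 0.903, 0.908 and 0.810. For *Ltb4r2*, *Serpinb10* (r = 0.956) and *Rbm28* (r = 0.946) were among the 3 most alike, with 0.753 and 0.610 after the group means were taken off. Among the members themselves *Ltb4r1* and *Ltb4r2* were the most alike (r = 0.866, and 0.679 without the group means), while *Ptges* and *Ltb4r2* had r = -0.778, and -0.14 without the group means.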

How the data were processed

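Keratinocyte RNA was sequenced in paired, strand-specific libraries. The authors aligned reads to mm39 with STAR 2.7.10b and counted them with FeatureCounts 2.0.6 on GENCODE M31. They deposited raw counts per gene symbol, and log2 normalized counts, which equal log2 of the count over a size factor plus 1 (50 symbols, 0 of them members, were off by over 0.01). Pair and strand settings of the counting are not given in the sources used here. Of the counts from 1 to 99, 79.8% were even, as when both mates are counted, so counts were also halved as an alternative chosen after seeing the data.

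The counts were fitted with edgeR 4.0.16 in R 4.3.3 (TMM, quasi-likelihood, means of the 4 groups, no covariate, all 26 libraries). Standard errors come from the fold change and the F statistic. Log2 CPM used a prior count of 1. TPM used exon lengths of GENCODE M39 on GRCm39, whose release differs from that of the authors. With 52624 of 56738 symbols matched, this covers 98.4% of counts. In simulated counts 200 of the 16893 genes were changed, and between 68% (the interaction) and 83% (KO with cytokines against KO basal) of them were found again. The other 3 effects gave 75.5% (WT cells), 70.5% (genotypes, basal) and 78.5% (genotypes, treated). False calls numbered 3 to 14. Smaller changes, such as those of the basal genotype calls at 1.55 to 1.62 times, were not simulated, so these shares do not apply to them. DESeq2 1.42.0, limma 3.58.1 and each mouse left out in turn were alternatives.

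Libraries of the same genotype and number in their titles were read as the same mouse. The study gives 5 WT and 8 KO mice for the 26 libraries but does not state which libraries share a mouse. Deviations from group means of such pairs correlated at 0.000509 to 0.254 (median 0.106).

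The members, the pathway list and the markers were chosen with earlier results of these data known. Every member is named, with full statistics for those called and for *Ptgs2* and *Alox5*. Of the pathway list, the 6 largest calls per comparison and *Alox12b*, *Aloxe3*, *Alox8* and *Alox5ap* are named. The permutation tests were planned for the members with full statistics, and *Ptges2* and *Lta4h* were added so that all 9 were tested. *Krt1*, *Krt10*, *Ptgs2os* and the promoter motifs were chosen after values were seen. One result of the search for genes most like *Ltb4r2* is not reported here.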

Additional observations from a re-analysis of the deposited data

Results flagged for a closer look

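Single libraries stood apart from the rest of their group in 8 of 40 gene and group combinations examined, by a gap test that chance passes in about 1 in 20. *Alox15* gave 4 of these, where the library that stood out held at most 10 counts and 2 of 5, 4 of 5, 6 of 8 and 7 of 8 libraries were at 0: 0.198 CPM in WT basal replicate 2, 0.0846 CPM in WT with cytokines replicate 2, 0.155 CPM in KO basal replicate 8 and 0.0425 CPM in KO with cytokines replicate 1. *Alox5* was high in WT basal replicate 5 (0.662 CPM) and in KO with cytokines replicate 2 (1.14 CPM). *Ptgs1* was low in KO basal replicate 5 (0.613 CPM), and *Lta4h* was low in WT basal replicate 4 (48.65 CPM, where the other 4 lay between 59.5 and 61.1 CPM).

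Some members were flagged for a difference between the genotypes in the response to cytokines. In the fit over all genes such a difference was called for *Ltb4r1* alone (interaction log2 difference 0.837, adjusted p = 0.0923). That call was lost in 13 of the alternative settings, most of them with a single mouse left out. The exact permutation test of within-mouse changes, unadjusted over 9 members, had p under 0.05 for *Ltb4r1* (KO minus WT 0.905), *Ltb4r2* (0.532), *Ptgs2* (-0.463), *Ptges2* (-0.308), *Ptgs1* (0.762) and *Alox5* (2.61, which rests on libraries at or near 0). The interaction in the fit over all genes was not called for the last 5 of these.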

How the results depend on the processing

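Over 1071 log2 fold changes recomputed for the members, 1030 kept their direction and their side of the threshold, 21 lost and 9 gained a call, and 11 changed sign, none of them called. The calls of all members were the same with DESeq2 size factors, DESeq2, limma on the authors' log2 values, filterByExpr, only the groups compared, halved counts and, as a replicate block, the mouse (3, 3 and 1 members called for the cytokine effect in WT, in KO and the interaction, and 4 and 0 with the mouse as a random term for the genotype effects). Without the threshold on fold change 5 members were called for the cytokine effect in WT and 6 in KO. With glmTreat 0 members were called for the basal genotype effect and 0 for the interaction, which was also 0 without the filter and at an adjusted p of 0.05. With each mouse left out the calls were 3 to 4 (cytokine effect in WT), 3 to 3 (in KO), 3 to 4 (genotype, basal), 0 to 0 (genotype with cytokines) and 0 to 1 (interaction). *Ptges2* was gained in WT without WT replicate 1 and *Ptgs2* without WT replicate 2.

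Sign changes with a mouse left out concerned the cytokine effect in WT on *Ptgs1* (-0.087 to 0.254), *Alox5* (-0.521 to 0.023) and *Alox12* (-0.139 to 0.102), the basal genotype effect on *Alox5* (-0.214 to 0.821, and -0.184 with limma and -0.218 with the random block), the genotype effect with cytokines on *Ptgs1* (-0.077 to 0.347) and *Ltb4r2* (-0.241 to 0.026), and the interaction of *Lta4h* (-0.07 to 0.013). The cause was not tested. The TPM of *Lta4h* was 25.5 with the longest transcript against 21.6. By Spearman correlation 1 of the 3 most alike genes remained for *Ptges* and 1 for *Ltb4r2*, where *Serpinb10* and *Rbm28* did not remain. Over all genes, the 5 effects in the order above called 2349, 1837, 453, 119 and 37 genes, against 6221, 6048, 2303, 479 and 166 without the threshold on fold change and 1060, 880, 4, 0 and 0 with glmTreat. Without the filter the cytokine effect in KO called 3305. The genotype effect with cytokines called 180 with only the groups compared, 54 at an adjusted p of 0.05, and 44 to 558 (without WT replicate 1) with a mouse left out. The interaction called 80 with the mouse as a block, 62 with DESeq2, 21 at an adjusted p of 0.05 and 18 to 92 with a mouse left out, and the basal genotype effect 341 to 824. Depth limits *Alox5* and *Alox15*.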
